A study of Mus musculus with 15 samples.

Results

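Transcripts of 7 genes through which the oocyte and its follicle cells communicate were followed across mouse oocyte maturation: the growth factors Gdf9, Bmp15, Bmp6, Fgf8 and Rspo2, the receptor Kit and the connexin Gja4. They were chosen by name, as the 7 symbols to which the platform annotation assigns 11 probe sets unambiguously, among 18193 genes and 45037 probe sets outside the controls. Of the 11 probe sets, 10 passed the filter on low signal, which kept the brighter 50% of probe sets, a normalized log2 intensity of at least 3.07. The probe set of Fgf8 did not, so 6 of the 7 genes were tested and Fgf8 is described without a test.

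The 15 arrays came from female mice of the B6D2F1 hybrid strain, all primed with pregnant mare serum gonadotropin (PMSG), which drives follicle growth, and the labels name no mutation in any group. Adult mice of 7 to 8 weeks gave in vivo matured MII oocytes (n = 3), in vitro matured MII oocytes (n = 2) and GV oocytes (n = 2). Mice of 26 days (d26, peripubertal) gave MII oocytes after maturation in vivo (n = 2) or in vitro (n = 3), and mice of 20 days (d20, prepubertal) gave MII oocytes after maturation in vitro (n = 3). GV oocytes are immature oocytes with an intact germinal vesicle, taken from ovaries 48 h after PMSG, and MII oocytes have reached metaphase of the second meiotic division. In vitro maturation lasted 16 h in a medium named Gmat, and in vivo maturation followed human chorionic gonadotropin given 48 h after PMSG. Each array held polyadenylated RNA from 150 pooled oocytes stripped of cumulus cells with hyaluronidase, so the values are levels of polyadenylated transcript averaged over a pool, and a change in the share of oocytes and a change per oocyte cannot be told apart.

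A growing oocyte and the granulosa and cumulus cells around it depend on each other. The oocyte secretes GDF9 and BMP15, relatives of TGF-beta that act through SMAD proteins in the follicle cells, together with BMP6, FGF8 and the WNT agonist R-spondin 2. The follicle cells in turn make Kit ligand, which binds the receptor tyrosine kinase KIT on the oocyte surface, and connexin 37, the product of Gja4, forms the oocyte's side of the gap junctions that join both cell types. At maturation transcription is silent, and maternal transcripts are translated or degraded in an ordered way.

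Arrays differed in brightness and in signs of RNA quality, and the labelled cell type was checked against markers. In 4 MII arrays, here called dim (replicate 1 of the adult in vivo group, replicate 2 of the adult in vitro group and replicates 2 and 3 of the d26 in vitro group), 2615 to 3042 probe sets exceeded an intensity of 200, against 4882 to 9819 in the other arrays, of which the GV arrays were the brightest. Median intensities per array ran from 5.08 to 25.3, and the ratio of the 3' to the 5' Gapdh control ran from 2.27 to 82.3, highest in the d26 in vivo arrays. Of 14 oocyte markers on the array, 13 or 14 exceeded the filter level in every array, with a mean log2 level of 9.15 to 10.35 in the MII arrays and 11.45 to 11.75 in the GV arrays. Of 18 cumulus and granulosa markers, 9 to 15 exceeded that level in the MII arrays and 13 to 16 in the GV arrays, with mean levels of 3.51 to 4.76 in MII and 3.7 to 4.0 in GV arrays. Amh, 1 of these markers, averaged 0.66 in GV oocytes and at most 2.76 in an MII group, below the filter level. Other markers of the list lay above that level, so Amh does not stand for the list. Of 12 leukocyte markers, 8 to 11 exceeded the filter level in the adult in vivo arrays (mean levels 3.86 to 5.18). In the GV arrays 5 or 6 did (2.29 to 2.37). The cumulus and granulosa mean levels of the adult in vivo arrays were 4.25 to 4.61, above both GV arrays. Oviduct epithelium markers averaged 4.37 to 5.09 in the adult in vivo arrays and 4.19 to 4.63 in the d26 in vivo arrays. Their levels were 2.90 to 4.80 in the in vitro arrays and 3.53 to 3.86 in the GV arrays. The part of brightness, RNA quality or other cells in the results below was not tested, except where values without the dim arrays are given.

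Promoter sequences are given for 2 members to set beside the transcription factors described further on. Bmp15 is among the genes linked to the homeobox factor NOBOX in mouse oocytes, and Gja4 showed the largest fall of the members. Whether NOBOX acts on either promoter was not tested. RefSeq gene starts on GRCm38.p6 matched 4 of the 7 members (Bmp15, Bmp6, Kit and Gja4), with 250 bases before and 50 after the start. The windows are chrX:6320675-6320974 on the minus strand for Bmp15 and chr4:127313990-127314289 on the minus strand for Gja4, printed 5′ to 3′ along the gene. Capitals mark the NOBOX element in the forms TAATTG and TAATTA and the E-box (CANNTG, the motif class of FIGLA), searched on both strands. Other forms of the NOBOX element were not searched.
Bmp15: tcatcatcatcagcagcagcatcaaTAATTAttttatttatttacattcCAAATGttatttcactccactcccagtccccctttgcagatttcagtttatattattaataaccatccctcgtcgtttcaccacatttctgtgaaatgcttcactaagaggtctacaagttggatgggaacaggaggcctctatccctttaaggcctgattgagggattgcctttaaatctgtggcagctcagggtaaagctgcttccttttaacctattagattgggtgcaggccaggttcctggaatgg
Gja4: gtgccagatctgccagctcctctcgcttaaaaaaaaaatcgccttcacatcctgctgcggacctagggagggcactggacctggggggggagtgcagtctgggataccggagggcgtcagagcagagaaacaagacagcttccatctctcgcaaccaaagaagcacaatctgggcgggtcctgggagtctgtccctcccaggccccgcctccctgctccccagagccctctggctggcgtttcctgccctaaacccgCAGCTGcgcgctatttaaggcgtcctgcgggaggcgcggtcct
Bmp15 held TAATTA at -225 and an E-box, printed CAAATG, at -201 relative to the gene start, which do not overlap, and Gja4 held an E-box, printed CAGCTG, at 8 after the start. Among 32851 mouse promoter windows of 300 bases, 72.3% held an E-box and 12.4% held either of the NOBOX forms searched, TAATTA in 5.29%. The Kit and Bmp6 windows held E-boxes and neither of the NOBOX forms searched.

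The first question was how the members changed between the GV stage and MII in adults. After maturation in vivo, 4 of the 10 tested member probe sets were lower than in GV oocytes and 0 were higher: those of Gja4, Bmp6 and Rspo2 and 1 of the 3 of Bmp15. After maturation in vitro, 4 were lower and 0 higher: those of Gja4, Rspo2 and Kit and the same Bmp15 probe set. Among all 22519 tested probe sets, 26.8% were called in vivo (15.7% higher and 11.1% lower) and 27.7% in vitro (16% higher and 11.7% lower), by limma with Benjamini-Hochberg adjustment at 0.05. The median log2 difference of the member probe sets was -0.80 in vivo and -0.88 in vitro, beside 0.24 and 0.13 over all tested probe sets. Both comparisons use the same 2 GV arrays, so they are not independent of each other.

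Those counts depend on how arrays were scaled. Without scaling beyond the deposited values, the median of all tested probe sets was -0.98 in vivo and -1.94 in vitro, and with arrays set to a common median it was -0.21 and -0.53. The calls in vivo then split into 23 higher and 3481 lower as deposited, and 1205 higher and 3876 lower with a common median, against 3542 and 2495 with quantile normalization. In vitro they split into 11 and 6224 as deposited and 1315 and 4468 with a common median, against 3607 and 2641. The called falls of Gja4, Rspo2, Kit, Bmp6 and the Bmp15 probe set had the same sign under all 3 scalings, and 2 of the 4 calls in vivo were lost under each of the other scalings, those of Rspo2 and Bmp6.

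**Figure D1:**
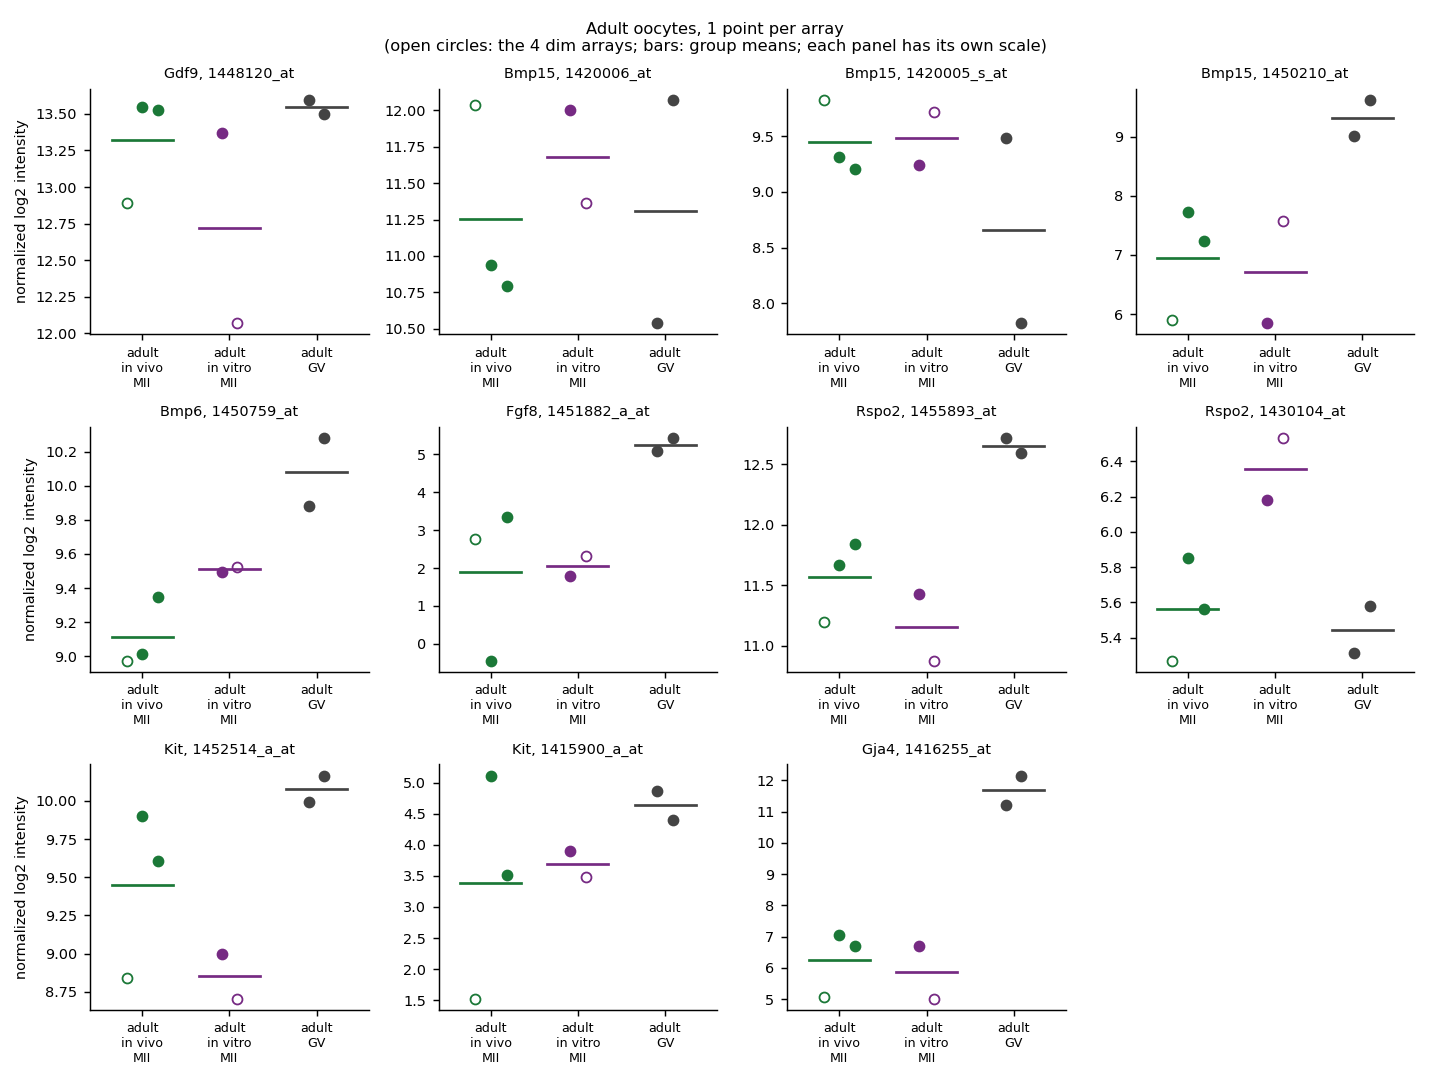
Normalized log2 intensity of each of the 11 member probe sets in adult oocytes, with 1 point per array for in vivo MII (n = 3), in vitro MII (n = 2) and GV (n = 2), group means as bars and the dim arrays as open circles; each panel has its own axis. Gja4 lies between 5.02 and 7.04 in the MII arrays and at 11.22 and 12.15 in the GV arrays, while the Gdf9 points spread mostly by the dim arrays.

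Gja4, connexin 37 of the oocyte's gap junctions, showed the largest difference. Its probe set read 5.06, 7.04 and 6.68 on the normalized log2 scale in the in vivo MII arrays and 6.68 and 5.02 in the in vitro MII arrays, against 11.22 and 12.15 in the GV arrays. The groups did not overlap, as for 55.3% of all tested probe sets in vivo and 66.6% in vitro. In vivo the log2 difference was -5.42 (SE 0.66, adjusted p = 4.68e-05), so GV oocytes read 42.9-fold higher. In vitro it was -5.83 (SE 0.72, adjusted p = 6.45e-05), 57.1-fold higher in GV oocytes. The deposited intensities were 13.7 to 216 in these 5 MII arrays, against 4296 and 6336 in the GV arrays. The call held under all 24 alternatives in each comparison, with differences from -6.00 to -4.62 in vivo and from -7.29 to -4.80 in vitro. All 13 MII arrays of the 3 ages lay below both GV arrays, between 5.02 and 7.75, and 3 of the 4 dim arrays were among the 4 lowest. Both GV arrays came from adults, so the d20 and d26 arrays differ from them in age as well as stage. The share of all tested probe sets that separate all MII from GV arrays, here and below, was not counted.

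Rspo2 encodes R-spondin 2, a secreted agonist of WNT signalling. Its brighter probe set (1455893_at) read 11.19, 11.67 and 11.84 in the in vivo MII arrays and 11.43 and 10.87 in the in vitro MII arrays, against 12.72 and 12.59 in the GV arrays. The differences were -1.09 in vivo (SE 0.23, adjusted p = 0.00273) and -1.50 in vitro (SE 0.25, adjusted p = 0.000548), a GV level 2.12-fold and 2.84-fold higher. All 13 MII arrays lay below both GV arrays. The call in vitro held under all 24 alternatives, and the call in vivo was lost without further scaling (-1.47, adjusted p = 0.214) and with a common array median (-0.70, adjusted p = 0.228). The dimmer Rspo2 probe set (1430104_at) read 5.27, 5.85 and 5.56 in vivo and 6.18 and 6.53 in vitro, against 5.31 and 5.58 in GV oocytes. It did not pass in vivo (0.12, SE 0.42, adjusted p = 0.889) or in vitro (0.91, SE 0.46, adjusted p = 0.167), so with quantile normalization the probe sets of this gene gave different answers. As deposited its differences were -1.69 in vivo and -1.93 in vitro, of the same sign as the brighter probe set, and did not pass either.

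Gdf9 and Bmp15 encode the oocyte's partner ligands for the follicle cells. Gdf9 read 12.89, 13.55 and 13.53 in the in vivo MII arrays and 13.37 and 12.07 in the in vitro MII arrays, against 13.60 and 13.50 in the GV arrays. The low in vivo and in vitro values are those of the dim arrays. Its mean lay at the 99.9th percentile of all probe sets, where quantile normalization leaves few values to which an array can be set. The differences of -0.23 in vivo (SE 0.35, adjusted p = 0.711, 95% confidence interval -0.97 to 0.52) and -0.83 in vitro (SE 0.38, adjusted p = 0.129, interval -1.64 to -0.01) did not pass. Without the dim arrays they were -0.01 and -0.16, and without adult in vitro replicate 1, which leaves the dim array alone, the in vitro difference was -1.47 (adjusted p = 0.0115). With array weights the in vitro difference of -0.83 passed (adjusted p = 0.0352). Where leaving out an array leaves 1 in a group, here and below, that array is assumed to vary like those of the other groups.

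Bmp15 had 3 probe sets, and with quantile normalization they disagreed. The brightest (1420006_at) read 12.04, 10.94 and 10.79 in vivo and 12.00 and 11.36 in vitro, against 10.54 and 12.07 in the GV arrays, with differences of -0.05 in vivo (SE 0.43, adjusted p = 0.956, interval -0.96 to 0.86) and 0.38 in vitro (SE 0.47, adjusted p = 0.616, interval -0.62 to 1.38). The second (1420005_s_at) read 9.82, 9.32 and 9.20 in vivo and 9.24 and 9.72 in vitro, against 9.48 and 7.83, with differences of 0.79 (SE 0.42, adjusted p = 0.196) and 0.82 (SE 0.46, adjusted p = 0.214). The GV arrays themselves differed by more than these differences for both probe sets, and without GV replicate 1, which leaves 1 GV array, the second one passed (1.65, adjusted p = 0.0169 in vivo, and 1.68, adjusted p = 0.0188 in vitro). The third (1450210_at) read 5.90, 7.72 and 7.23 in vivo and 5.85 and 7.58 in vitro, against 9.01 and 9.62 in the GV arrays. It fell by 2.37 in vivo (SE 0.61, adjusted p = 0.00960) and by 2.60 in vitro (SE 0.67, adjusted p = 0.00911), and all 13 MII arrays lay below both GV arrays. That call was lost without GV replicate 2, in vivo (-2.10, adjusted p = 0.108) and in vitro (-2.33, adjusted p = 0.0839), and without adult in vitro replicate 1 (-1.73, adjusted p = 0.107). In vivo the fall was smaller without the dim arrays (-1.79), and in vitro it was larger (-3.49). As deposited the second probe set also read lower at MII (-0.61 in vivo and -1.50 in vitro), as did the brightest in vitro (-0.97). The third then fell by more (-3.57 in vivo and -4.92 in vitro), and only the third passed. The place of each probe set on the Bmp15 transcript was not analysed here.

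Bmp6 encodes a further TGF-beta family ligand made by oocytes. It read 8.97, 9.01 and 9.35 in the in vivo MII arrays and 9.50 and 9.53 in the in vitro MII arrays, against 9.88 and 10.28 in the GV arrays, with no overlap. In vivo it fell by 0.97 (SE 0.29, adjusted p = 0.0221), a GV level 1.96-fold higher. In vitro the difference of -0.57 (SE 0.32, adjusted p = 0.215) did not pass, and the in vivo and in vitro MII groups, which did not overlap either (as for 19.2% of all tested probe sets), were not shown to differ (-0.40, SE 0.29, adjusted p = 0.702). The in vivo call held under 18 of 24 alternatives. Among those that lost it were omission of GV replicate 2 (-0.79) and of adult in vivo replicate 2 (-0.92, adjusted p = 0.0549). It was also lost with the values as deposited (-2.01, adjusted p = 0.129), where the fall was larger.

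Kit encodes the receptor for Kit ligand. Its brighter probe set (1452514_a_at) read 8.84, 9.90 and 9.60 in the in vivo MII arrays and 9.0 and 8.71 in the in vitro MII arrays, against 9.99 and 10.17 in the GV arrays. In vitro it fell by 1.23 (SE 0.35, adjusted p = 0.0176), a GV level 2.34-fold higher. In vivo the difference of -0.63 (SE 0.32, adjusted p = 0.181) did not pass, and the direct comparison of the MII groups did not pass either (0.60, SE 0.32, adjusted p = 0.649). The in vitro call held under 20 of 24 alternatives. Among those that lost it were omission of GV replicate 1 (-1.34), of GV replicate 2 (-1.16) and of the dim adult in vitro replicate 2 (-1.06). The dimmer Kit probe set (1415900_a_at) spread from 1.53 to 5.11 in vivo and read 3.91 and 3.48 in vitro, against 4.87 and 4.41 in GV oocytes, and did not pass in vivo (-1.25, SE 0.94, adjusted p = 0.389) or in vitro (-0.94, SE 1.03, adjusted p = 0.563). Mast cells also carry KIT. Of 10 mast cell markers 4 or 5 exceeded the filter level in the adult in vivo MII arrays. In the adult in vitro MII arrays 2 to 4 did, and in the GV arrays 2 to 4. At d26 the counts were 2 to 8 in vivo and 3 to 7 in vitro, and at d20 3 to 5.

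Fgf8 encodes an oocyte fibroblast growth factor that acts on cumulus cells. Its probe set read 2.77, -0.45 and 3.35 in the in vivo MII arrays and 1.79 and 2.33 in the in vitro MII arrays, against 5.09 and 5.44 in the GV arrays. The deposited intensities were 1.25 to 13.2 in vivo and 2.22 and 3.30 in vitro, against 111 and 149 in the GV arrays. All 13 MII arrays lay below both GV arrays, the highest at 3.35. Its mean over all arrays, 1.70, lay below the filter level, so it was left out of the fit. In the fit without a filter its differences of -3.37 in vivo (adjusted p = 0.118) and -3.20 in vitro (adjusted p = 0.185) did not pass.

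**Figure D2:**
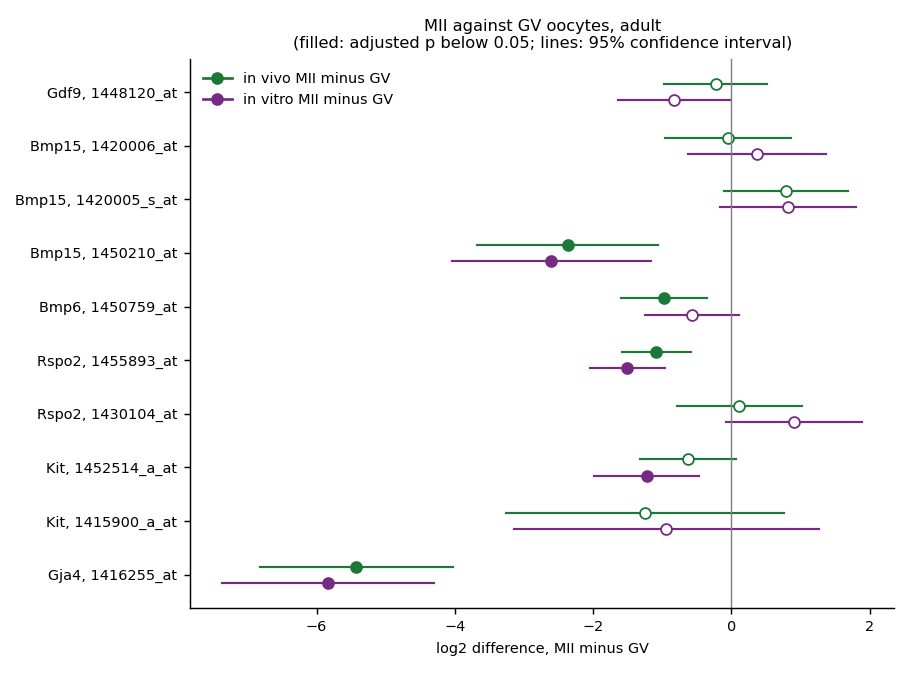
Log2 difference of MII minus GV oocytes for the 10 tested member probe sets, in vivo and in vitro, with lines for the 95% confidence interval and filled points where the adjusted p was below 0.05. Gja4 stands at -5.42 and -5.83, and on these quantile normalized values probe sets of the same gene stand apart for Bmp15 (-2.37 against -0.05 and 0.79 in vivo) and Rspo2 (-1.09 against 0.12).

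The second question was whether oocytes matured in vivo and in vitro differed. None of the 10 member probe sets passed in adults or at d26 by limma with Benjamini-Hochberg adjustment, where 0.00444% and 0.04% of all tested probe sets were called, and an unadjusted p under 0.05 was reached by 0 and 1 of them, beside 8% and 6.8% of all tested probe sets. Over the mean of both ages 0 passed, where 0.226% of all were called (0.195% higher and 0.0311% lower), and 4 had an unadjusted p under 0.05, as did 12.4% of all tested probe sets: Rspo2 (0.50, SE 0.16, adjusted p = 0.270), Kit (0.64, SE 0.23, adjusted p = 0.308), Gdf9 (0.57, SE 0.25, adjusted p = 0.379) and Bmp6 (-0.46, SE 0.21, adjusted p = 0.393). With quantile normalization the differences of the first 3 were positive and that of Bmp6 negative. The sign for Bmp6 was not stable: over 24 alternatives its difference ran from -0.59 to 0.65, the latter as deposited. Those of Rspo2 (0.35 to 1.45) and Kit (0.52 to 1.80) stayed positive. The lowest in vitro Gdf9 values, 12.34 at d26 and 12.07 in adults, came from dim arrays. Over 24 alternatives the Gdf9 difference for the mean of both ages ran from 0.14 to 1.28.

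At d26 the bright Rspo2 probe set read 11.64 and 11.60 in vivo, against 11.16, 10.98 and 11.01 in vitro. Those groups did not overlap, as for 20% of all tested probe sets, and the difference was 0.57 (SE 0.23, adjusted p = 0.654). The d26 Kit values (1452514_a_at) were 9.76 and 10.19 in vivo, against 9.63, 9.08 and 9.20 in vitro, also without overlap (0.68, SE 0.32, adjusted p = 0.746). Of the d26 in vitro arrays, 2 of 3 were dim. Gja4 overlapped between the groups, with 6.59 and 7.28 in vivo and 7.39, 5.76 and 7.17 in vitro at d26 (0.16, SE 0.66, interval -1.24 to 1.56). Gdf9 read 13.50 and 13.60 in vivo at d26, against 13.39, 12.34 and 13.31 in vitro (0.54, SE 0.35, adjusted p = 0.796).

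**Figure D3:**
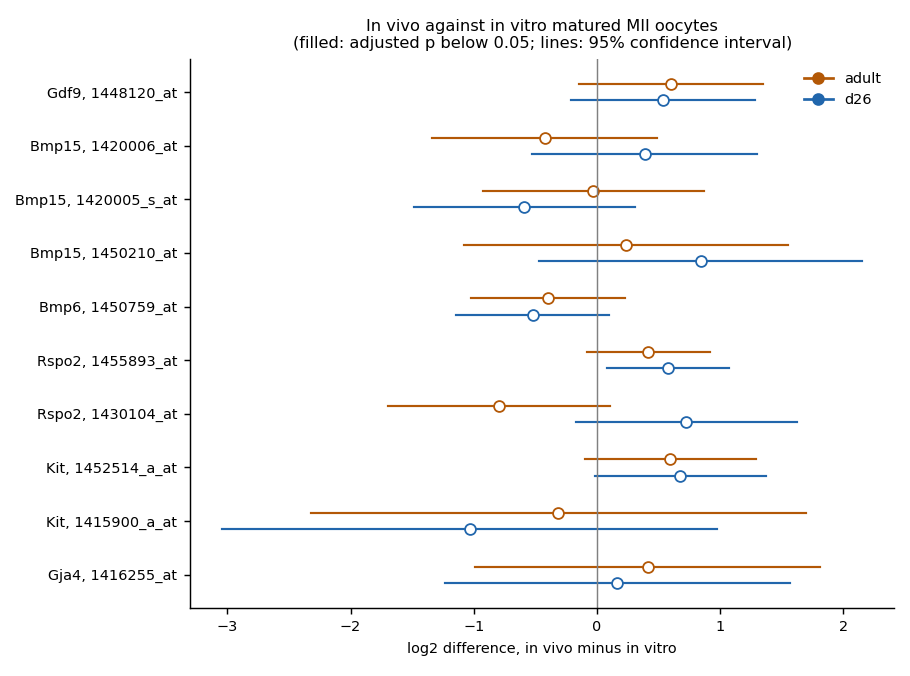
Log2 difference of in vivo minus in vitro matured MII oocytes for the 10 tested member probe sets in adults and at d26, with lines for the 95% confidence interval. No point is filled because none had an adjusted p below 0.05, and the bright Rspo2 and Kit probe sets lie between 0.42 and 0.68 at both ages.

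The third question was how in vitro matured oocytes differed by the age of the female. None of the 10 member probe sets passed between adult and d20, adult and d26 or d26 and d20 mice by limma with Benjamini-Hochberg adjustment, where 0.0222% (0.00444% higher and 0.0178% lower), 0.00444% and 0% of all tested probe sets were called. An unadjusted p under 0.05 was reached by 4, 1 and 2 of them, beside 17.6%, 7.34% and 11.5% of all tested probe sets. Between each older group and d20 the lowest p values were those of the bright Rspo2 and Kit probe sets, and between adult and d26 the lowest was that of the dim Rspo2 probe set.

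The bright Rspo2 probe set read 12.02, 12.14 and 12.41 at d20, 11.16, 10.98 and 11.01 at d26, and 11.43 and 10.87 in adults. The d20 arrays lay above all arrays of the older groups. The difference was -1.14 for d26 minus d20 (SE 0.21, unadjusted p = 6.77e-05, adjusted p = 0.176) and -1.04 for adult minus d20 (SE 0.23, unadjusted p = 0.000473, adjusted p = 0.109). It passed for d26 minus d20 with array weights (-1.11, adjusted p = 0.0319), and for adult minus d20 without adult in vitro replicate 1, which leaves only the dim adult array (-1.31, adjusted p = 0.0228), or adult in vivo replicate 1 (-1.02, adjusted p = 0.0484). Without the dim arrays, which leave 1 array at d26 and 1 in adults, the differences were -0.95 and -0.71 (adjusted p = 0.113 and 0.0971). The dim Rspo2 probe set (1430104_at) read 5.97, 5.55 and 5.61 at d20, 5.07, 5.27 and 5.80 at d26, and 6.18 and 6.53 in adults, where both arrays lay above all of the younger groups. Its adult minus d20 difference of 0.64 (SE 0.42, adjusted p = 0.428) had the other sign than that of the bright probe set, and its adult minus d26 difference was 0.98 (SE 0.42, unadjusted p = 0.0350, adjusted p = 0.654). As deposited its adult minus d20 difference was -0.86, of the same sign as the bright probe set. Its deposited adult intensities, 56.5 and 28.0, lay below those at d20 (92.7, 57.0 and 70.7).

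Kit (1452514_a_at) read 10.32, 9.85 and 10.30 at d20, 9.63, 9.08 and 9.20 at d26, and 9.0 and 8.71 in adults, with no overlap between the ages. The difference was -0.86 for d26 minus d20 (SE 0.29, adjusted p = 0.414) and -1.30 for adult minus d20 (SE 0.32, adjusted p = 0.132). Groups did not overlap for 18.5% of all tested probe sets between d26 and d20, for 41.5% between adult and d20 and for 16.5% between adult and d26. Without the dim arrays the Kit differences were -0.50 and -1.09. Gja4 read 7.54, 7.15 and 7.75 at d20, 7.39, 5.76 and 7.17 at d26, and 6.68 and 5.02 in adults. The low d26 and adult values of Gja4 came from dim arrays, and its adult minus d20 difference of -1.63 (SE 0.66, adjusted p = 0.238) was -0.81 without them. Gdf9 read 13.52, 13.45 and 13.46 at d20, 13.39, 12.34 and 13.31 at d26, and 13.37 and 12.07 in adults, and its adult minus d20 difference of -0.76 (SE 0.35, adjusted p = 0.278) was -0.09 without the dim arrays and -1.40 (adjusted p = 0.0486) without adult in vitro replicate 1, which leaves only the dim adult array.

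**Figure D4:**
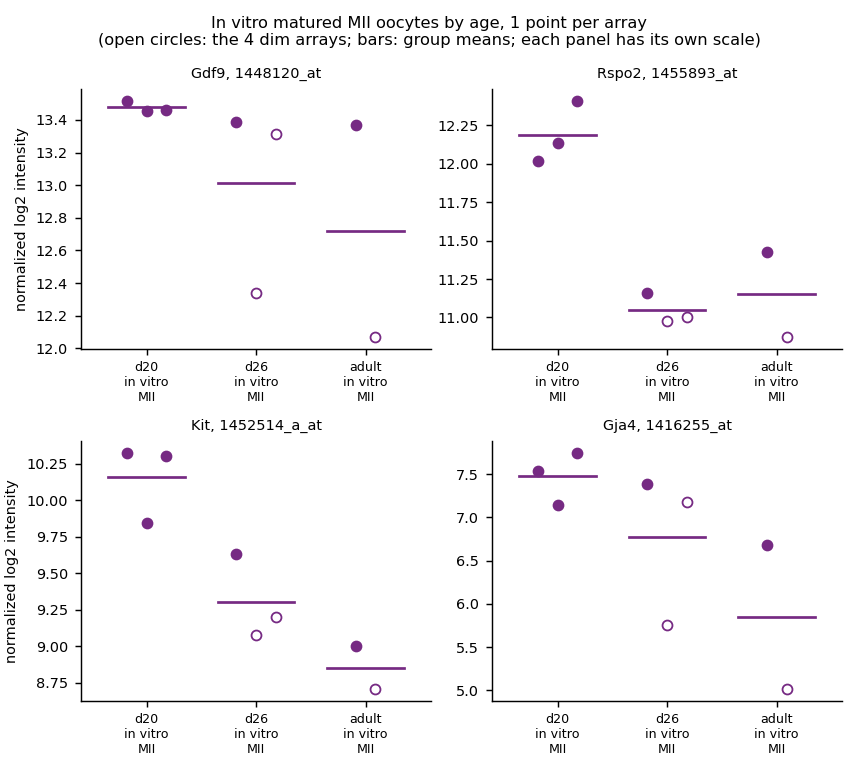
Normalized log2 intensity of Gdf9, Rspo2, Kit and Gja4 in in vitro matured MII oocytes of d20 (n = 3), d26 (n = 3) and adult (n = 2) mice, with 1 point per array, group means as bars and dim arrays as open circles; each panel has its own axis. Rspo2 and Kit read highest in the d20 arrays, and the low Gdf9 values are dim arrays.

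Across all 6 groups the members fell into different orders. Gja4 was highest in GV oocytes (mean 11.68), then d20 in vitro (7.48), d26 in vivo (6.94), d26 in vitro (6.77), adult in vivo (6.26) and adult in vitro (5.85), and only the step below GV separated neighbours without overlap. Rspo2 (1455893_at) ran from GV (12.65) and d20 in vitro (12.19) to d26 in vivo (11.62), adult in vivo (11.57), adult in vitro (11.15) and d26 in vitro (11.05), with no overlap at the first 2 steps. Kit (1452514_a_at) was highest in d20 in vitro (10.16), GV (10.08) and d26 in vivo oocytes (9.98), followed by adult in vivo (9.45), d26 in vitro (9.30) and adult in vitro (8.85), and only the last pair of neighbours did not overlap. Gdf9 means ran from 13.55 in GV and d26 in vivo oocytes to 12.72 in adult in vitro oocytes, and neighbours overlapped at every step.

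A list of transcription factors known to act on oocyte growth factor genes was set beside the members. Of 7 genes of this list tested, 3 were lower and 2 higher at MII in vivo, and 3 were lower and 1 higher in vitro; over all 12028 tested genes 12.3% were lower and 18.3% higher in vivo, and 12.9% and 18.4% in vitro. Nobox, a homeobox factor of oocyte growth, averaged 6.34 in vivo and 6.66 in vitro, against 10.21 in GV oocytes, and fell by 3.86 in vivo (SE 0.55, adjusted p = 0.000151) and 3.54 in vitro (SE 0.60, adjusted p = 0.000566). Lhx8, a LIM homeobox factor, averaged 9.05 in vivo and 9.87 in vitro, against 12.08, and fell by 3.03 (SE 0.41, adjusted p = 0.000115) and 2.21 (SE 0.45, adjusted p = 0.00208). Figla, a basic helix-loop-helix factor that binds E-boxes, averaged 3.96 in vivo and 2.66 in vitro, against 7.16, and fell by 3.20 (SE 1.00, adjusted p = 0.0278) and 4.50 (SE 1.10, adjusted p = 0.00650). Its in vitro mean lies below the filter level of 3.07. All 3 kept their calls in both comparisons with the values as deposited and with a common median. Figla lost its call without any single adult in vivo or GV array in vivo (adjusted p up to 0.165), and in vitro without adult in vitro replicate 1 (0.0688) or GV replicate 2 (0.0524). Taf4b, a TFIID subunit of germ cells, was higher with quantile normalization in vivo (1.42, adjusted p = 0.00281) and in vitro (1.49, adjusted p = 0.00365), but had the other sign as deposited (-0.22, adjusted p = 0.927, and -1.09, adjusted p = 0.401). Its calls were also lost with a common median (0.55, adjusted p = 0.517, and 0.32, adjusted p = 0.732) and without GV replicate 2 (adjusted p = 0.0567 and 0.0516).

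Genes that receive or carry the members' signals were described by list, and the calls of most changed with the scaling. Fgf16, in vivo, was the only list gene still called higher as deposited. With a common median the calls were also lost for Acvr1, Acvr2a, Kitl, Nras and Pik3cd in vivo, for Tgfbr1 and Pik3cb in vitro, and for Lrp6, Fzd3, Gjc1 and Gjb2 in both; the values given below are those with quantile normalization unless stated. Over all 12028 tested genes 18.3% were higher and 12.3% lower in vivo, and 18.4% and 12.9% in vitro. Of 24 receptors, SMADs, convertases and antagonists of the TGF-beta family, 7 were higher and 1 lower in each MII group with quantile normalization. As deposited 0 were higher in both and 0 and 2 lower, and with a common median 2 and 4 were higher and 0 and 1 lower. Smad1, a transducer of BMP signals, was higher in vivo (2.33, SE 0.58, adjusted p = 0.00741) and in vitro (3.40, SE 0.63, adjusted p = 0.00105), and Acvr2a, a type II receptor, was higher by 2.15 (SE 0.63, adjusted p = 0.0200) and 3.27 (SE 0.69, adjusted p = 0.00259). Smad2, a transducer of GDF9 signals, was lower in vivo (-1.35, adjusted p = 0.0317, a call lost under both other scalings) and in vitro (-2.36, adjusted p = 0.00177). The in vivo calls were lost without GV replicate 1 for Smad1 (adjusted p = 0.109), and without adult in vivo replicate 1 or either GV array for Acvr2a (up to 0.141) and Smad2 (up to 0.189). Acvr1 was higher in vivo (1.86, adjusted p = 0.00147) and Tgfbr1, the type I receptor used by GDF9, in vitro (1.81, adjusted p = 0.00309), and as deposited both had the other sign without passing (-0.0885, adjusted p = 0.974, and -0.77, adjusted p = 0.459). Of 9 other TGF-beta family ligands, 0 were higher and 1 and 2 lower: Tgfb2 in vivo (-0.96, adjusted p = 0.0159, lost under both other scalings) and in vitro (-1.26, adjusted p = 0.00522), and Tgfb3 in vitro (-4.65, adjusted p = 0.0401), whose in vitro mean of 2.04 lies below the filter level. Tgfb2 lost its in vivo call without GV replicate 1 (adjusted p = 0.171) and its in vitro call without GV replicate 1 or adult in vitro replicate 2 (up to 0.0652), and Tgfb3 lost it without any of 9 single arrays (up to 0.193).

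Among all tested genes 18.3% were higher and 12.3% lower in vivo, and 18.4% and 12.9% in vitro. Of 29 genes of Kit ligand and signalling downstream of Kit, 10 were higher and 0 lower in vivo, and 9 higher and 1 lower in vitro. As deposited 0 were higher and 2 and 4 lower, and with a common median 3 and 4 were higher and 3 and 2 lower. Kitl, the ligand of KIT and itself a granulosa marker here, averaged 8.04 in vivo and 8.58 in vitro, against 5.79 in GV oocytes, a difference of 2.25 (SE 0.49, adjusted p = 0.00311) and 2.79 (SE 0.54, adjusted p = 0.00130). Its in vivo call was lost as deposited (0.35, adjusted p = 0.848), with a common median (1.12, adjusted p = 0.0756) and without GV replicate 2 (adjusted p = 0.0574), and its in vitro difference as deposited was -0.0573 (adjusted p = 0.962). Among the other granulosa markers Foxl2 averaged 5.18 in vivo and 5.93 in vitro, against 4.45 in GV oocytes, while Fshr averaged 2.86 and 3.50, against 4.28. Gsk3b, a kinase inhibited by AKT, was higher in vivo (2.53, SE 0.36, adjusted p = 0.000159) and in vitro (3.16, SE 0.40, adjusted p = 7.37e-05). Nras was higher in vivo (2.01, adjusted p = 0.00129; 0.94, adjusted p = 0.346 with a common median) and the PI3-kinase subunit Pik3cb in vitro (2.27, adjusted p = 0.00110; -0.59, adjusted p = 0.625 as deposited). Pik3cd was higher in vivo by its brightest probe set (2.26, adjusted p = 0.0243) and lower by another, and lost its call without adult in vivo replicate 2 or 3 or GV replicate 2 (adjusted p up to 0.301). The adaptor Grb2 was lower in vitro (-5.34, adjusted p = 0.00420), where its mean of 2.06 lies below the filter level, and its call was lost without adult in vitro replicate 1 (-3.09, adjusted p = 0.0516).

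Of 13 R-spondin and WNT co-receptor genes, 4 were higher and 0 lower in vivo and 5 higher and 1 lower in vitro, where 18.3% and 18.4% of all tested genes were higher. As deposited 0 were higher in both and 0 and 3 lower, and with a common median 3 were higher in both and 0 and 2 lower. Lgr4, a receptor of R-spondins, was higher in vivo (2.65, SE 0.39, adjusted p = 0.000214) and in vitro (3.25, SE 0.43, adjusted p = 0.000109), with means of 7.77 and 8.37, against 5.12 in GV oocytes. The WNT co-receptor Lrp6 was higher by 1.84 (adjusted p = 0.00362) and 2.26 (adjusted p = 0.00166), and the WNT receptor Fzd3 by 2.14 (adjusted p = 0.00263) and 2.22 (adjusted p = 0.00379), although as deposited both had the other sign in vitro without passing (-0.17, adjusted p = 0.868, and -0.67, adjusted p = 0.675). Lrp6 lost its in vivo call without GV replicate 1 (adjusted p = 0.0741) and Fzd3 its in vitro call without adult in vitro replicate 1 (1.35, adjusted p = 0.0545). Apc, a scaffold of the beta-catenin destruction complex, was higher in vivo (1.05, adjusted p = 0.000808). Axin2, a feedback target of WNT signalling, was lower in vitro (-3.36, adjusted p = 0.0139), a call lost without either GV array or the dim adult in vitro replicate 2 (adjusted p up to 0.103).

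For the FGF and connexin lists too, the shares of all tested genes were 18.3% higher and 12.3% lower in vivo, and 18.4% and 12.9% in vitro. Of 12 FGF receptor and signalling genes, 4 were higher and 1 lower in vivo and 3 higher and 2 lower in vitro. As deposited 1 and 0 were higher and 0 and 3 lower, and with a common median 3 were higher in both and 1 and 2 lower. Fgf9 was higher in vivo (2.46, SE 0.35, adjusted p = 0.000157) and in vitro (2.84, SE 0.38, adjusted p = 0.000120), and so was Spred1, an inhibitor of RAS signalling (1.72, adjusted p = 0.000648, and 2.37, adjusted p = 0.000142). Fgf16 averaged 3.62 in vivo and 3.86 in vitro, against 0.00464 in GV oocytes (adjusted p = 0.00239 and 0.00283). Its GV mean lies below the filter level, which the gene passed through the MII groups, so its call is no support for the list and the size of its difference rests on a value under that level. Spry1, an inhibitor of FGF signalling, was lower in vivo (-1.56, adjusted p = 0.00943), a call lost as deposited (-2.85, adjusted p = 0.0590) and without either GV array (up to 0.0849), and Fgfrl1 was lower in vitro, with a mean of 2.34 there, below the filter level (-2.68, adjusted p = 0.0377), a call lost without any single array of its groups (up to 0.174). Of 6 other connexins and pannexins, 2 were higher and 1 lower in vivo and 2 higher and 0 lower in vitro, against 0 higher and 1 and 2 lower under both other scalings. Gjc1, connexin 45, was higher (1.98, adjusted p = 0.000809, and 1.87, adjusted p = 0.00226) and so was Gjb2, connexin 26 (1.61, adjusted p = 0.00195, and 1.24, adjusted p = 0.0176). As deposited Gjc1 in vitro (-0.95, adjusted p = 0.434) and Gjb2 in both (-0.32, adjusted p = 0.899, and -1.68, adjusted p = 0.226) had the other sign without passing. Gjb2 lost its in vitro call without GV replicate 2 (adjusted p = 0.131) or adult in vitro replicate 2 (0.0834). Panx1, pannexin 1, was lower in vivo, where its mean of 2.86 lies below the filter level (-3.97, adjusted p = 0.0249), a call lost without GV replicate 1 or 2 or adult in vivo replicate 2 or 3 (up to 0.141). In each of the other 7 comparisons 0 of the 100 tested list genes passed by limma, and 1 to 22 had an unadjusted p under 0.05, beside 3.73% to 17.6% of all tested probe sets. The 22 were for adult minus d20 in vitro, where the share of all was 17.6%.

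**Figure D5:**
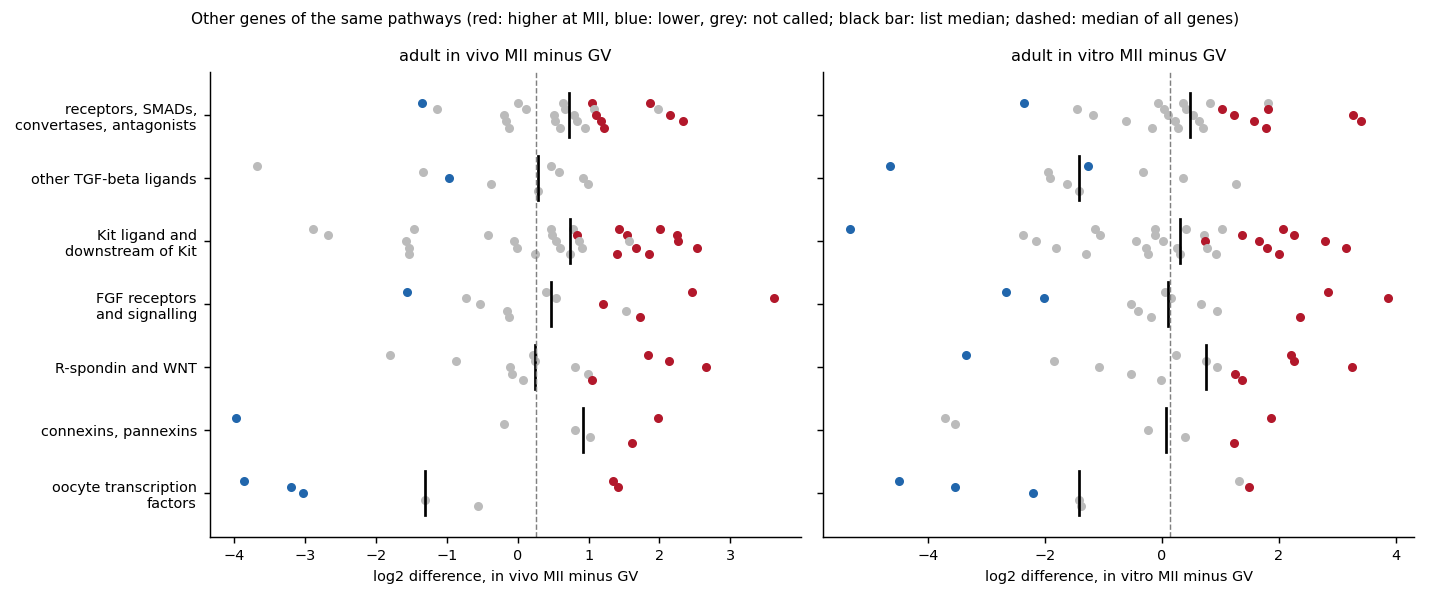
Log2 difference of MII minus GV oocytes for the tested genes of the 7 lists, in vivo and in vitro, with 1 point per gene coloured by call, the list median as a bar and the median of all genes as a dashed line, on quantile normalized values. The transcription factor list has its median at -1.31 in vivo and -1.42 in vitro. Most other points called higher belong to the receptor, Kit and WNT lists, which hold the most tested genes (24, 29 and 13). With the values as deposited 0 genes of these lists were called higher.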

How the data were processed

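The deposited values are MAS5 intensities of 45101 probe sets on 15 arrays, on a linear scale, per the submitters' processing notes. Neither its version nor its scaling target is stated in the labels or headers. Every column was matched to a sample by its accession in the header. The 64 control probe sets were left out, log2 intensities were quantile normalized across the arrays because array medians differed by 2.31 on the log2 scale, and the 22519 probe sets in the upper 50% by mean entered a limma fit (version 3.58.1, R 4.3.3) with 1 coefficient per group and an intensity trend. P-values were adjusted by Benjamini-Hochberg separately in each of the 9 comparisons and called at 0.05. The fit had 9 residual degrees of freedom, and the number of arrays limits the precision.

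Probe sets were named from the platform annotation (34958 with 1 symbol, 932 with several, 9211 with none or unlisted), with symbols updated where possible (34754) through the GRCm38.p6 gene table, and levels are not compared between probe sets. For a list gene the tested probe set of highest mean was taken. Named genes are all members, up to 4 called genes of each list by size of difference in each of the MII against GV comparisons, and the 3 genes whose mean-centred log2 profile over the 15 arrays lies nearest a member's. The members and the lists were chosen with earlier results of these data known. Whether the pools of a group came from different animals is not stated, so the p-values reflect only the spread between these arrays, which may be technical.

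Alternatives were the values as deposited, a common array median, no filter, the upper 30%, a pseudocount of 3.73, the compared arrays alone, no trend, array weights, omission of the 4 dim arrays and of each array in turn. The fit was tested on simulated data with known changes. Promoters are RefSeq windows on GRCm38.p6; protein sequences and probe positions were not used here.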

Additional observations from a re-analysis of the deposited data

Results flagged for a closer look

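The dimmer Rspo2 probe set (1430104_at) was flagged because its in vivo and in vitro arrays lay apart in opposite directions at the 2 ages. That separation and the unadjusted p below rest on the values used to pick it and are no support. Its quantile normalized in vivo minus in vitro differences had opposite signs, and neither passed by limma (-0.79, adjusted p = 0.647 in adults, and 0.73, adjusted p = 0.789 at d26). In adults it read 5.27, 5.85 and 5.56 in vivo, against 6.18 and 6.53 in vitro, so every in vivo array lay below every in vitro array. As deposited these groups overlapped, with intensities of 18.7, 90.9 and 62.1 in vivo and 56.5 and 28.0 in vitro. The adult difference was then 0.25, of the same sign as at d26. Groups did not overlap for 19.2% of all tested probe sets in adults and 20% at d26. The share that lay apart in opposite directions at both ages was not counted. At d26 it read 5.93 and 6.28 in vivo, against 5.07, 5.27 and 5.80 in vitro, so every in vivo array lay above. The adult minus d26 difference of the in vivo minus in vitro differences was -1.52 (SE 0.59, unadjusted p = 0.0222), and it did not pass limma's test across all probe sets (adjusted p = 1). The brighter Rspo2 probe set (1455893_at) showed no such reversal (-0.16, SE 0.33).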

How the results depend on the processing

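Of 2151 values of the member probe sets under 24 alternatives, 2010 kept their side of the threshold and direction, 15 lost a call, 8 gained one and 118 uncalled values changed sign, while 0 called values changed sign. The 4 member calls in vivo MII against GV became 2 with the values as deposited, 2 with a common array median and 2 to 5 when 1 array was left out; the 4 in vitro calls became 2 to 4. The lowest counts came without GV replicate 2. For adult against d20 the count of 0 became 0 to 2 when 1 array was left out, 2 without adult in vitro replicate 1 and 1 without adult in vivo replicate 1, and for d26 against d20 it became 1 with array weights. In MII against GV, the median of all probe sets changed sign both as deposited and with a common array median, as given with the calls above. As deposited, the medians of 6 of the 7 lists changed sign in vivo. With a common median, those of the FGF (-0.30) and connexin (-0.048) lists did so in vivo. In vitro, those of the receptor (-0.14), Kit (-0.36), FGF (-0.42) and connexin (-0.57) lists did so with a common median. Among the list genes named in the text and called, the sign changed as deposited in vivo for Acvr1 (-0.0885), Gjb2 (-0.32) and Taf4b (-0.22). In vitro it changed for Kitl (-0.0573), Pik3cb (-0.59), Lrp6 (-0.17), Fzd3 (-0.67), Tgfbr1 (-0.77), Gjc1 (-0.95), Gjb2 (-1.68, and -0.26 with a common median) and Taf4b (-1.09). Calls over all probe sets in vivo MII against GV, 6037, ran from 3298 without GV replicate 2 to 10291 with array weights, and were 3504 as deposited; in vitro, 6248 became 4136 and 3767 without GV replicates 1 and 2. Without the dim arrays, which leaves 1 adult and 1 d26 in vitro array whose spread is taken from the other groups, adult against d20 gave 325 calls in place of 5, adult against d26 83 in place of 1, d26 against d20 33 in place of 0, and in vivo against in vitro 106 in place of 1 in adults, 85 in place of 9 at d26 and 133 in place of 51 over both ages. No paired analysis was possible because the labels give the groups no shared replicate numbers. Groups of 2 or 3 arrays and probe sets with different values for 1 gene limit what is said of each member.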

Other observations

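Genes whose profiles over the 15 arrays lay nearest the members' were listed by the root mean square (RMS) difference of mean-centred log2 values, as a description over 12027 genes that share arrays and brightness. Nearest Gdf9 was Usp9x (RMS 0.179), a deubiquitinase, followed by Stt3b (0.189) and Yap1 (0.194), beside a median of 0.980 over all genes. Nearest the brightest Bmp15 probe set were Mrpl18 (0.264), Ebna1bp2 (0.297) and Plpp1 (0.308), and nearest Bmp6 were Cdr2 (0.215), Rph3a (0.238) and Nprl2 (0.249). Nearest the bright Rspo2 probe set were C9orf72 (0.255), Mmadhc (0.273) and the clathrin heavy chain gene Cltc (0.273). Nearest the bright Kit probe set were Fkbp5 (0.182), Cdc42 (0.251) and Zcchc8 (0.259). Gja4 had an SD of 1.95 over arrays, and nearest it were the tubulin gene Tubb4b (0.526), Rufy1 (0.549) and the cytochrome oxidase gene Cox4i1 (0.551), beside a median of 2.09.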
